A study of Homo sapiens with 8 samples.

Results

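The genes described here serve the cell's answers to protein and oxidative stress, and 60 of them were taken by name: 16 of endoplasmic reticulum (ER) stress sensing and signalling, 12 ER chaperones and folding enzymes, 9 of ER-associated degradation, 14 of the heat shock response and 9 of the NRF2 antioxidant response. A row of the deposited table belonged to the set when its gene name was one of these symbols, and the rule itself uses no measured value, though the symbols were chosen with earlier results of these data known. In HUH7, 55 of the 60 were listed, out of 10447 genes. In PLC/PRF/5, 48 were listed with 94 peaks, out of 9516 peaks. Both lines listed 44 of them, and EDEM1 was listed in neither.

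HUH7 and PLC/PRF/5 are established human hepatocellular carcinoma cell lines. In each, parental cells served as control for cells in which CRISPR-Cas9 had knocked out CSTF2, a subunit of the cleavage stimulation factor that helps form mRNA 3′ ends. MeRIP-seq enriches RNA fragments that carry N6-methyladenosine (m6A) by immunoprecipitation (IP) and compares them with an input library from the same RNA. Each line gave 4 libraries (parental IP, parental input, knockout IP and knockout input), 1 per group, so no value has a replicate and no test was made. Whether the knockout cells were 1 clone or a pool is not given in the sources used here.

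The table holds the authors' log2 fold changes of the difference between control and knockout, 1 per gene in HUH7 and 1 per peak in PLC/PRF/5. Which genotype is the numerator is not stated, nor whether both lines use the same one, so signs are given as deposited and name no direction toward the knockout. A size of 1 on the log2 scale is a factor of 2, and "beyond 1" below means an absolute value of 1 or more. Peak positions, read counts and RNA levels were not analysed here, so the depth behind each value is unknown. Of 12 hepatocyte markers, 10 were listed in at least 1 line, and AFP and TTR were listed in neither; being listed is no measure of expression.

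Proteins that misfold in the ER occupy the chaperone BiP (HSPA5), and the sensors IRE1 (ERN1), PERK (EIF2AK3) and ATF6 become active. IRE1 splices the XBP1 mRNA, PERK slows translation by phosphorylating eIF2-alpha while ATF4 is still made, and a cleaved fragment of ATF6 enters the nucleus; their targets enlarge the folding and degradation capacity of the ER. In the cytosol HSF1 drives chaperone genes after heat shock, and NRF2 (NFE2L2), freed from KEAP1, drives antioxidant and glutathione genes. Hepatocytes secrete much protein and handle many reactive compounds, so both systems are known to matter in liver.

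Most of these genes carried small values in HUH7, and more were positive than negative. Of the 55, 40 were positive and 15 negative, where 60.8% of all HUH7 genes were positive. The median was 0.21 (interquartile range -0.08 to 0.42), beside 0.20 (-0.36 to 0.87) over all HUH7 genes. An absolute value under 0.5 was found for 36 of the 55, compared with 42.3% of all genes. Beyond 1 lay 13, 8 of them positive and 5 negative, compared with 36.9% of all genes. The share of positive genes ran from 5 of 8 in ER-associated degradation to 13 of 16 among sensors and signalling genes, and the group medians ran from 0.14 to 0.30.

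**Figure D1:**
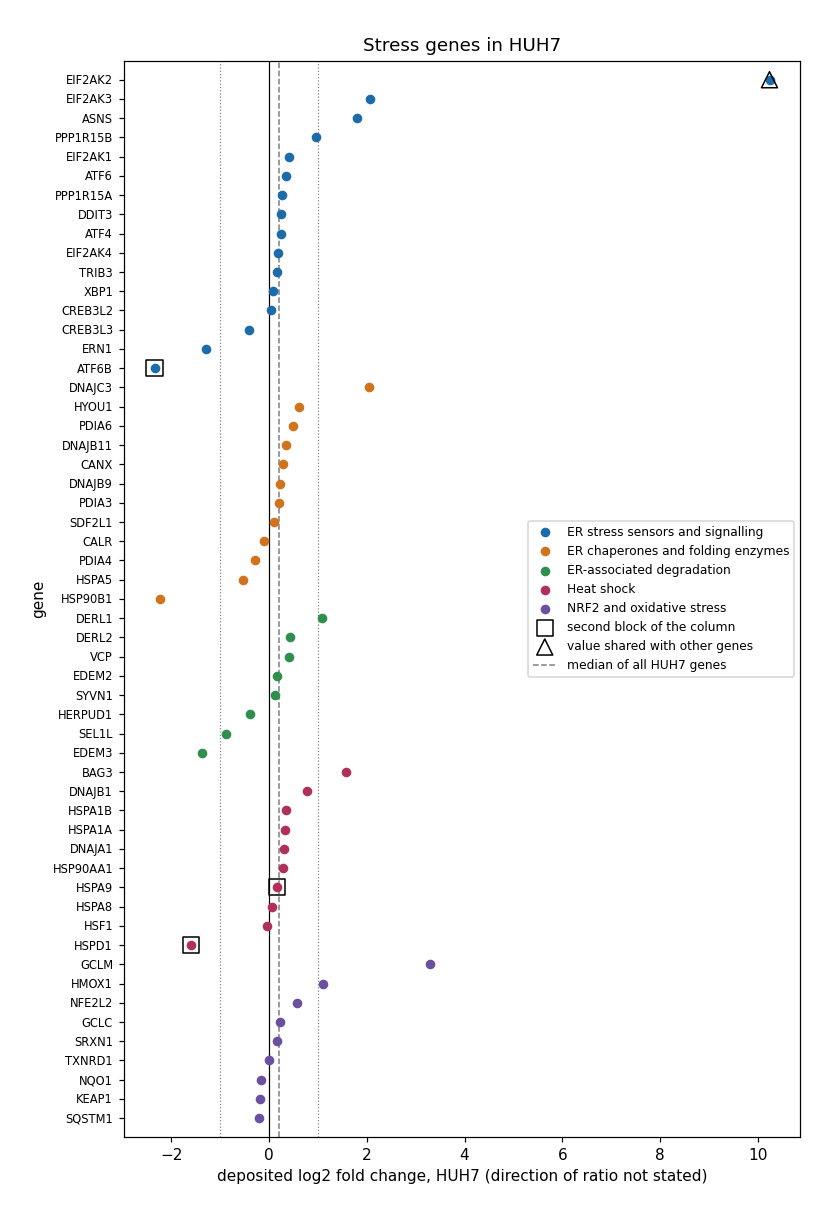
Deposited log2 fold change in HUH7 (x axis, direction of the ratio not stated) of each of the 55 listed genes (y axis), 1 point per gene, coloured by role; the dashed line is the median of all HUH7 genes (0.20), dotted lines mark -1 and 1, squares mark genes in the second block of the column and the triangle a value shared with other genes. Most points lie within 0.5 of zero, while EIF2AK2 stands at 10.24 and GCLM at 3.30.

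A pair of features of the HUH7 column touch single members. EIF2AK2 held 10.24 in the authors' deposited table, a value that 64 genes share to 6 decimals. It is 1 of 16 values that were each shared by 10 or more genes, together by 12.6% of all HUH7 genes. The 8 positive ones are spaced as the log2 values of the whole numbers 3 to 10, to within 5.4e-07. The negative ones are spaced the same way in absolute size, to within 3.9e-07. Without the shared values, 48.4% of HUH7 genes lay under 0.5 and 27.8% beyond 1, nearer to the stress genes (36 and 12 of 54). The column also runs through the chromosomes in order for 9968 genes and then starts again for another 479. In that second block 9.60% of genes were positive and the median was -2.27, compared with 63.3% and 0.24 in the first block. ATF6B, HSPD1 and HSPA9, 3 of the 55, are in the second block, which holds 4.59% of all genes, and 2 of them lay beyond 1, as did 73.9% of the block. Without them, 39 of 52 were positive and 11 lay beyond 1, beside 35.1% of first-block genes beyond 1. What sets the second block apart was not tested.

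**Figure D2:**
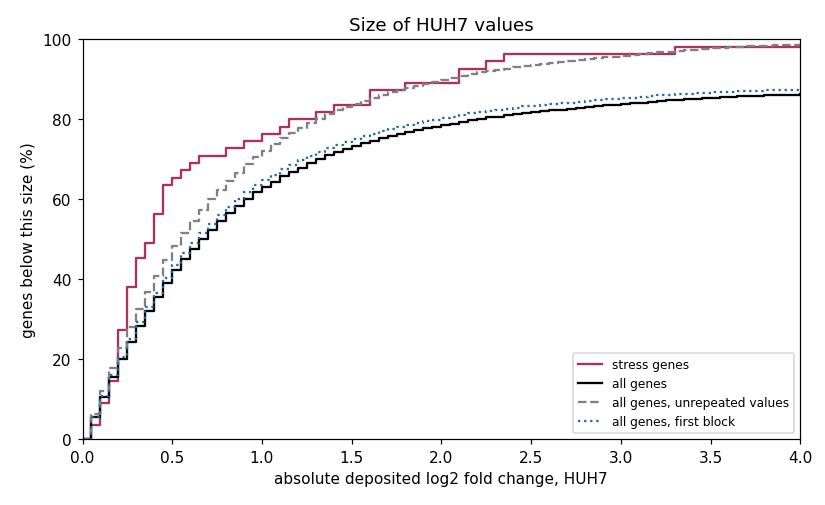
Percentage of HUH7 genes (y axis) whose absolute deposited log2 fold change lay below each size (x axis, shown up to 4), for the 55 stress genes, all 10447 genes, all genes without shared values, and all genes of the first block. At a size of 0.5 the curve of the stress genes is at 65.5%, above those of all genes (42.3%) and of all genes without shared values (48.4%).

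PLC/PRF/5 values were large and mostly positive, for these genes as for the whole column. Of the 94 peaks 84 were positive and 10 negative, where 86.0% of all peaks were positive. The median was 6.50, beside 5.44 over all peaks, and 88 lay beyond 1 (87.1% of all peaks). All PLC/PRF/5 peaks filled the range from -2.12 to just under 13 evenly, each of 15 bins of width 1 holding 599 to 655 of them. The stress genes were spread over the same range, with 10 peaks below 0, 25 from 0 to 4, 16 from 4 to 7, 22 from 7 to 10 and 21 from 10 to 13 (19.7% of all peaks). By gene, 39 of 48 had only positive peaks, 1 had only negative peaks and 8 had both signs, beside 78.1%, 8.75% and 13.1% of all genes.

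Peaks of the same gene were often far apart. Of the 48 genes 27 had 2 or more peaks (39.5% of all genes), and in 8 of those the peaks had both signs (33.2% of all genes with 2 or more peaks). The median distance between the lowest and the highest peak of a gene was 6.01, beside 6.42 over all genes. Pairs of peaks from the same stress gene differed by a median of 5.49 (78 pairs), and pairs from different stress genes by 4.48 (4293 pairs). CANX gave 21 of the 78 pairs, and without it the median was 5.34; over all genes, pairs of peaks from the same gene differed by 4.40 (8505 pairs). Hence no single PLC/PRF/5 value below is read as the value of its gene.

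**Figure D3:**
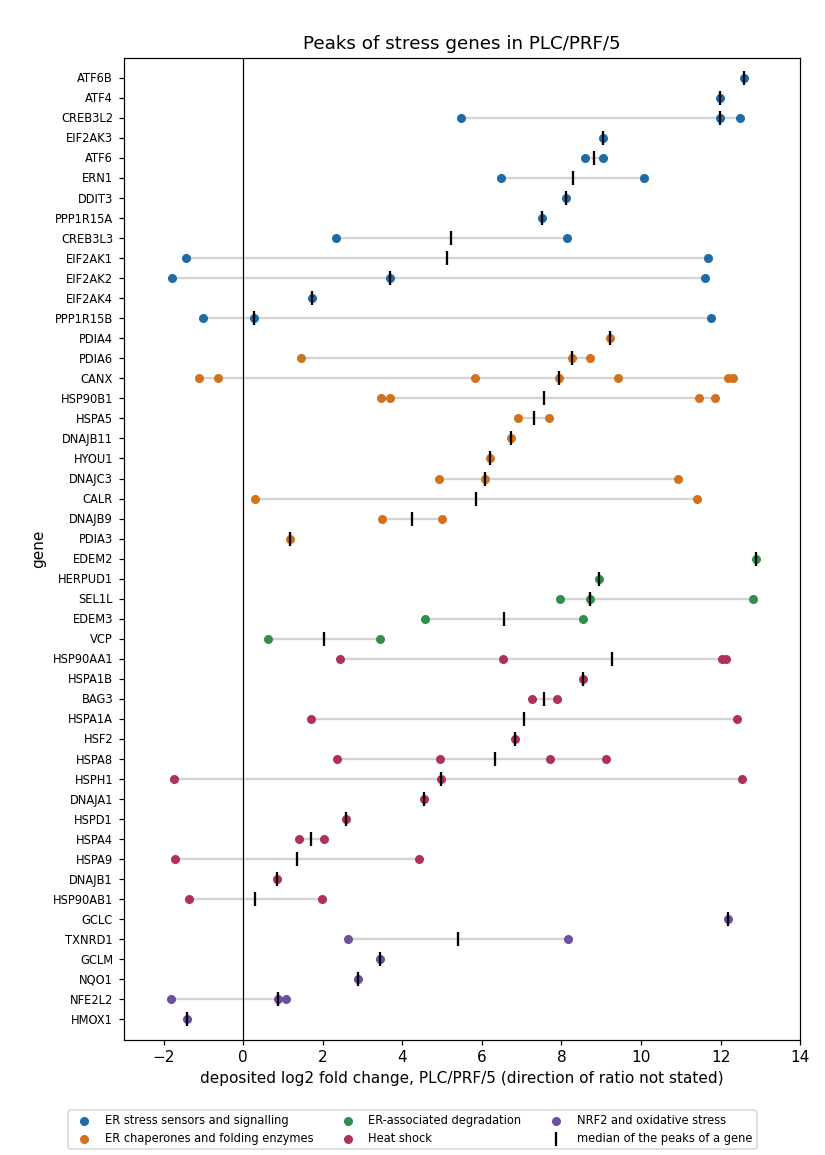
Deposited log2 fold change in PLC/PRF/5 (x axis, direction of the ratio not stated) of the 94 peaks of the 48 listed genes (y axis), 1 point per peak, coloured by role, with a grey line from lowest to highest peak and a black tick at the median. HSPH1, with peaks from -1.73 to 12.53, and CANX, with 7 peaks from -1.11 to 12.30, cross nearly the whole range.

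Among the ER sensors, the 3 arms carried different values in HUH7. EIF2AK3, the PERK kinase, had 2.07 in the authors' deposited table, a 4.20-fold difference. ERN1, the IRE1 kinase and nuclease, had -1.30, a 2.46-fold difference of the opposite sign, in the authors' deposited table. ATF6 had 0.35, and its paralogue ATF6B, also a membrane-bound factor cleaved on stress, had -2.34 in the authors' deposited table. PERK and IRE1 thus lay on opposite sides of zero, ATF6 near the median of all genes and ATF6B, a gene of the second block, among the lowest stress genes. In PLC/PRF/5 the peaks of these 4 genes were all positive, as were 86.0% of all peaks. EIF2AK3 had 9.04, ERN1 6.48 and 10.08, ATF6 8.60 and 9.04, and ATF6B 12.59 in the authors' deposited table.

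EIF2AK3 is 1 of 4 kinases that phosphorylate eIF2-alpha, each with its own trigger. The others in HUH7 were EIF2AK2, the double-stranded RNA sensor PKR (10.24, the shared value), EIF2AK1, the haem-regulated kinase (0.42), and EIF2AK4, the amino acid sensor GCN2 (0.18), in the authors' deposited table. All 4 were positive, as were 60.8% of all HUH7 genes, and EIF2AK1 and EIF2AK4 were small. Their PLC/PRF/5 peaks in the authors' deposited table were -1.78, 3.68 and 11.61 for EIF2AK2, -1.43 and 11.69 for EIF2AK1, and 1.73 for EIF2AK4. EIF2AK1 and EIF2AK2 therefore had peaks of both signs.

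Downstream of the kinases, ATF4, DDIT3 and XBP1 had HUH7 values near the column's median of 0.20, and CREB3L3 lay below its lower quartile. ATF4, whose translation rises when eIF2-alpha is phosphorylated, had 0.24, and its target DDIT3 (CHOP), a pro-apoptotic factor, also 0.24 in the authors' deposited table. TRIB3, a pseudokinase induced by both, had 0.17, and XBP1, the mRNA that IRE1 splices, 0.087 in the authors' deposited table. PPP1R15A (GADD34) and PPP1R15B, the regulatory subunits of the eIF2-alpha phosphatase, had 0.27 and 0.97 in the authors' deposited table. The induced subunit PPP1R15A thus lay nearer the column's median than PPP1R15B, which is made in unstressed cells too. CREB3L2 and the liver-enriched CREB3L3, membrane-bound factors related to ATF6, had 0.041 and -0.41 in the authors' deposited table.

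ASNS, asparagine synthetase and a classic ATF4 target, stood apart from these regulators in HUH7 with 1.79, a 3.46-fold difference, in the authors' deposited table. In PLC/PRF/5, ATF4 (11.99), DDIT3 (8.13) and PPP1R15A (7.52) had 1 positive peak each in the authors' deposited table. PPP1R15B had peaks at -1.01, 0.28 and 11.76, CREB3L2 at 5.46, 11.97 and 12.49, and CREB3L3 at 2.33 and 8.13 in the authors' deposited table. TRIB3, XBP1 and ASNS were not listed there.

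Sequences of promoters, 250 bases before to 50 after a gene's start in GRCh38.p14 from RefSeq, were found for 55 of the 60 genes, 79 in all since some genes have several starts; DERL1, EIF2AK1, HMOX1, HSF1 and PDIA3 were not matched. They show which members hold a known stress element in the searched form. The genes were named for these same pathways, so a share above that of all promoters is no independent result. MeRIP-seq measures RNA, so these windows carry no measured value. The amino acid response element, through which ATF4 acts, was searched as TGATGNAA on both strands. It occurred in 4 of the 79 promoters (of ASNS, CREB3L2, HERPUD1 and PPP1R15B) and in 3.62% of all 35116 promoters of the same length. The ASNS and PPP1R15B elements are shown because these genes had the larger HUH7 values of the 4; capitals mark the element.
ASNS (chr7:97872449-97872496, minus strand): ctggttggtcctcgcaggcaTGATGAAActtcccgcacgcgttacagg
PPP1R15B (chr1:204412017-204412064, minus strand): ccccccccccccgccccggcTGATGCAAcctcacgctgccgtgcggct
HERPUD1 had -0.38 and CREB3L2 0.041 in HUH7 in the authors' deposited table, so the 4 genes with these letters held values from below to above zero.

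The ER chaperones and folding enzymes were mostly small in HUH7, with 8 positive and 4 negative of 12, where 60.8% of all genes were positive. HSP90B1 (GRP94), the HSP90 of the ER, had the lowest value of the group at -2.23, a 4.68-fold difference, in the authors' deposited table. HSPA5 (BiP), its HSP70 counterpart and the main ER chaperone, had -0.54 in the authors' deposited table. DNAJC3 (p58IPK), a J-domain co-chaperone of BiP, had the highest at 2.05, a 4.14-fold difference, in the authors' deposited table. BiP's partners therefore ran in both directions, with HSP90B1 and DNAJC3 beyond 1 and the remaining 10 genes of the group within it. Of all HUH7 genes, 36.9% lay beyond 1.

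Other helpers of BiP were positive in HUH7. HYOU1, its nucleotide exchange factor, had 0.61, and the J-domain proteins DNAJB11 and DNAJB9 had 0.35 and 0.21 in the authors' deposited table. SDF2L1, which works in a complex with DNAJB11, had 0.11 in the authors' deposited table. The lectin chaperones of the glycoprotein folding cycle lay near zero, with CANX (calnexin) at 0.29 and CALR (calreticulin) at -0.10 in the authors' deposited table. Of the protein disulfide isomerases, PDIA6 had 0.49, PDIA3, the partner of the lectin chaperones, 0.20, and PDIA4 -0.29 in the authors' deposited table. These 9 values spanned less than 1 log2 unit.

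In PLC/PRF/5, 10 of the 11 listed chaperone genes had only positive peaks (78.1% of all genes), and CANX had both signs. HSP90B1 had 4 peaks at 3.48, 3.69, 11.44 and 11.85, and HSPA5 had 2 close peaks at 6.92 and 7.68 in the authors' deposited table. CANX had 7 peaks, at -1.11, -0.63, 5.83, 7.93, 9.41, 12.18 and 12.30, the most of any stress gene, in the authors' deposited table. HSPA5 peaks lay close together, 2 HSP90B1 peaks were low and 2 high, and those of CANX were scattered. Over all genes, pairs of peaks from the same gene differed by a median of 4.40. Whether such spacing is particular to a gene was not tested. DNAJC3 (4.93, 6.07 and 10.94), PDIA6 (1.44, 8.26 and 8.72), DNAJB9 (3.49 and 5.01) and CALR (0.30 and 11.42) also had several peaks in the authors' deposited table. PDIA4 (9.23), DNAJB11 (6.73), HYOU1 (6.21) and PDIA3 (1.18) had 1 each in the authors' deposited table, and SDF2L1 was not listed.

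The ER stress element, which ATF6 and XBP1 bind together with NF-Y, was searched as CCAAT and CCACG with 9 bases of any kind between them, on both strands. It occurred in 27 of 35116 promoters (0.0769%) and in 8 of the 79 of stress genes, which belong to HSPA5, HSP90B1, CALR, CANX (with several starts), PDIA6 and XBP1. The CANX matches are the same element seen from several starts. By gene the count was 6 of 55, beside 0.0916% of all genes. The windows below are shown because these genes share a regulatory element and yet spanned -2.23 to 0.49 in HUH7 in the authors' deposited table. Capitals mark the element; the CALR element and the second HSP90B1 element lie in the reverse orientation.
HSPA5 (chr9:125241371-125241429, minus strand): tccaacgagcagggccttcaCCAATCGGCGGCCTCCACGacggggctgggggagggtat
HSP90B1, first (chr12:103930196-103930254, plus strand): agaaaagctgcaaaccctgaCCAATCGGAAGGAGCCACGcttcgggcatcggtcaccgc
HSP90B1, second (chr12:103930301-103930359, plus strand): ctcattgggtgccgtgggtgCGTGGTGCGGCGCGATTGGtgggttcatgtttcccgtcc
CALR (chr19:12938364-12938422, plus strand): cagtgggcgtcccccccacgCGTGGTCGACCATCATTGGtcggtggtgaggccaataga
CANX (chr5:179698758-179698816, plus strand): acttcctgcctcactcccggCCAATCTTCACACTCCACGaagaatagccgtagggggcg
PDIA6 (chr2:10812833-10812891, minus strand): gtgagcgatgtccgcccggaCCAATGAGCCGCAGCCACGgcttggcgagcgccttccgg
XBP1 (chr22:28800583-28800641, minus strand): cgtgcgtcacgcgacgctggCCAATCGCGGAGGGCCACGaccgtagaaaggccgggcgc
The core letters of the shorter XBP1 element, TGACGTG, were searched on both strands without flanking bases. They occurred in 3 of the 79 promoters (of HSP90AB1, HYOU1 and VCP) and in 1.97% of all promoters. HYOU1 (0.61) and VCP (0.41) were positive in HUH7 in the authors' deposited table.

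Genes of ER-associated degradation, which extracts misfolded proteins from the ER and hands them to the proteasome, lay on both sides of zero in HUH7. The mannosidase-like proteins of glycoprotein degradation differed, with EDEM3 at -1.37 and EDEM2 at 0.15 in the authors' deposited table. The ubiquitin ligase SYVN1 (HRD1) had 0.12, its partner SEL1L -0.87 and HERPUD1, which joins the same complex, -0.38 in the authors' deposited table. The channel proteins DERL1 and DERL2 had 1.09 and 0.43, and the extracting ATPase VCP 0.41 in the authors' deposited table. Of the EDEM and ligase complex genes, EDEM3, SEL1L and HERPUD1 were thus negative, and EDEM2 and SYVN1 were positive. The channel and ATPase genes were positive. Negative were 3 of the 8 listed genes, beside 39.1% of all HUH7 genes.

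All 9 PLC/PRF/5 peaks of this group, in 5 genes, were positive, where 86.0% of all peaks were. SEL1L had 7.97, 8.73 and 12.81, EDEM3 4.57 and 8.53, and VCP 0.63 and 3.43 in the authors' deposited table. EDEM2 (12.90) and HERPUD1 (8.95) had 1 peak each in the authors' deposited table. SYVN1, DERL1 and DERL2 were not listed.

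Heat shock genes were mostly positive and small in HUH7, 8 positive and 2 negative of 10, where 60.8% of all genes were positive. BAG3, a co-chaperone that links HSP70 to autophagy, had 1.58, a 2.99-fold difference, and DNAJB1, the main inducible J-domain partner of HSP70, had 0.77 in the authors' deposited table. The master regulator HSF1 had -0.051 in the authors' deposited table, so the factor itself lay at zero. HSPD1, the mitochondrial chaperonin HSP60, had -1.59, and HSPA9 (mortalin), the mitochondrial HSP70, 0.17 in the authors' deposited table. HSPD1 and HSPA9 are the 2 heat shock genes in the second block of the column. Without them 7 of 8 were positive, beside 63.3% of first-block genes. BAG3 alone of these lay beyond 1, beside 35.1% of first-block genes.

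The HSP70 and HSP90 genes of the cytosol that were listed, and DNAJA1, had small positive values in HUH7, below DNAJB1 and BAG3. HSPA1A and HSPA1B, the inducible HSP70 genes, had 0.33 and 0.35, HSPA8, the constitutive HSP70, 0.052, HSP90AA1 0.29 and DNAJA1 0.31 in the authors' deposited table. HSF2, HSPA4, HSPH1 and HSP90AB1 were not listed. HSPA1A (chromosome 6, 31815543 to 31817942, GRCh38) and HSPA1B (31827738 to 31830254) are near-identical neighbours, so reads could be split between them and their values are uncertain. Their promoters matched at 277 of 299 compared bases (92.6%), and 120 bases just upstream of the start are shown because the pair carried almost the same HUH7 value; capitals mark the 8 differing bases.
HSPA1A (chr6:31815422-31815541, plus strand): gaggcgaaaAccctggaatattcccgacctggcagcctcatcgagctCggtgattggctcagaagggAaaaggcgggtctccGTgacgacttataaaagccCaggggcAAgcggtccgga
HSPA1B (chr6:31827618-31827737, plus strand): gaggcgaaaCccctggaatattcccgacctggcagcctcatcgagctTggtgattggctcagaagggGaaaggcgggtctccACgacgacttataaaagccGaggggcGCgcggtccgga

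In PLC/PRF/5 the 13 listed heat shock genes had 26 peaks, 23 positive and 3 negative, where 86.0% of all peaks were positive. HSPA1A had peaks at 1.71 and 12.40, and HSPA1B 1 peak at 8.54 in the authors' deposited table, so the near-identical pair did not share a value there. HSP90AA1 had 2.44, 6.52, 12.03 and 12.14, and HSPA8 2.36, 4.95, 7.70 and 9.11 in the authors' deposited table. The negative peaks belonged to HSPH1 (-1.73, beside 4.97 and 12.53), HSPA9 (-1.72, beside 4.43) and HSP90AB1 (-1.35, beside 1.97) in the authors' deposited table. Each of these 3 genes thus also had a positive peak. BAG3 (7.25 and 7.88) and HSPA4 (1.39 and 2.02), an HSP110-type exchange factor like HSPH1, had 2 close peaks each in the authors' deposited table. HSF2 (6.84), DNAJA1 (4.55), HSPD1 (2.59) and DNAJB1 (0.84) had 1 each in the authors' deposited table, and HSF1 was not listed.

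The heat shock element was searched as GAA, TTC and GAA with 2 bases of any kind between neighbours, the binding unit of HSF1 in alternating orientation, on both strands. It occurred in 172 of 35116 promoters (0.490%) and in 5 of the 79 of stress genes, those of DNAJA1, HSP90AA1, HSP90AB1, HSPA8 and HSPD1. Only exact matches were counted, so a gene not named here may hold a variant of the element. A window of HSPA8 and one of HSPD1 are shown because these genes share the element but lay at 0.052 and -1.59 in HUH7 in the authors' deposited table. Capitals mark the element, which is reversed in HSPA8.
HSPA8 (chr11:123062159-123062211, minus strand): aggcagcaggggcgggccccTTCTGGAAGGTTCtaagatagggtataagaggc
HSPD1 (chr2:197500048-197500090, minus strand): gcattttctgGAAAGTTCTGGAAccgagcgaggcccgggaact

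The NRF2 group held the highest unshared HUH7 value of the 55, in a gene of glutathione synthesis. GCLM, the modifier subunit of glutamate-cysteine ligase (chromosome 1, 93885199 to 93909430, GRCh38), had 3.30 in the authors' deposited table, a 9.84-fold difference and above 93.3% of all HUH7 genes. GCLC, the catalytic subunit of the same enzyme, had 0.23 in the authors' deposited table. HMOX1, haem oxygenase 1, had 1.10, and the regulator NFE2L2 (NRF2) 0.57 in the authors' deposited table. GCLM and HMOX1 were the genes of this group beyond 1 (2 of 9, beside 36.9% of all HUH7 genes), and both were positive.

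The other NRF2 genes lay near zero in HUH7. SRXN1 (sulfiredoxin) had 0.16, TXNRD1 (thioredoxin reductase 1) 0.0097 and NQO1, a quinone reductase often used as a readout of NRF2, -0.16 in the authors' deposited table. KEAP1, which holds NRF2 for degradation, had -0.19, and SQSTM1 (p62), which can sequester KEAP1, -0.21 in the authors' deposited table. NRF2 and its inhibitor thus had opposite signs, both within 1.

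In PLC/PRF/5 the NRF2 group held the 1 stress gene of 48 with negative peaks alone, where 8.75% of all genes had only negative peaks. HMOX1 had 1 peak at -1.41, and NFE2L2 had 3 at -1.82, 0.88 and 1.08 in the authors' deposited table. GCLC had 12.19, GCLM 3.43, NQO1 2.88 and TXNRD1 2.63 and 8.16 in the authors' deposited table. GCLC and GCLM each had 1 peak, positive in both. KEAP1, SRXN1 and SQSTM1 were not listed.

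The core of the antioxidant response element, bound by NRF2 with a small MAF protein, was searched as TGACNNNGC on both strands. It is short, and 13.3% of all promoters held it, beside 17 of the 79 of stress genes. By gene, where several starts raise the share, these were 13 of 55, among them GCLM, KEAP1 and TXNRD1 of the NRF2 group, beside 16.1% of all genes. In VCP the match overlaps the shorter XBP1 element. GCLM and KEAP1 are shown because both carry the same 9 letters of the element, reversed, close to the start; GCLM had 3.30 and KEAP1 -0.19 in HUH7 in the authors' deposited table.
GCLM (chr1:93909436-93909484, minus strand): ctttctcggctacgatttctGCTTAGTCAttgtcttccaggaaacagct
KEAP1 (chr19:10502774-10502822, minus strand): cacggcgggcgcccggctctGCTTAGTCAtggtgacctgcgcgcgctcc

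Side by side, 31 of the 44 genes listed in both lines had a HUH7 value and a PLC/PRF/5 median of the same deposited sign, beside 56.8% of all genes listed in both. That both columns use the same direction of the ratio is not stated, and with 1 of them turned the count is 13 of 44. All 31 were positive in both lines, and none was negative in both. Another 12 were negative in HUH7 with a positive PLC/PRF/5 median (37.9% of all genes listed in both), and HMOX1 was the reverse. The split therefore followed the HUH7 sign, since 43 of the 44 medians were positive. Among the 11 genes beyond 1 in HUH7, 5 had the same sign in both lines (EIF2AK2, EIF2AK3, DNAJC3, BAG3 and GCLM), beside 57.5% of all such genes; turned, the count is 6 of 11. The HUH7 value and every PLC/PRF/5 peak had opposite signs in 13 of the 44 (37.0% of all genes listed in both), and with a size of 1 or more throughout in 6 (9.16%).

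**Figure D4:**
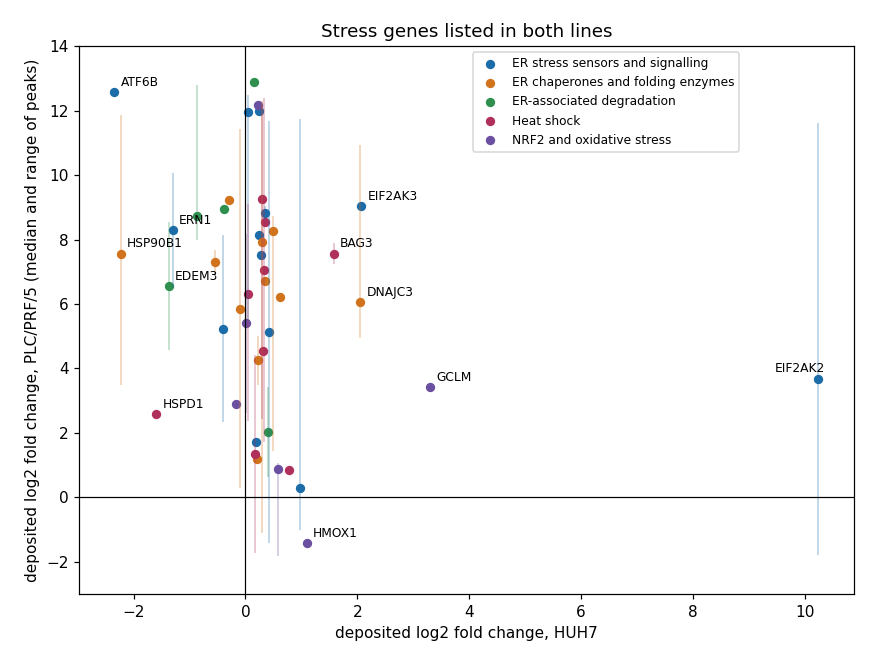
HUH7 value (x axis) against PLC/PRF/5 median (y axis), both deposited log2 fold changes, of the 44 genes listed in both lines; points are coloured by role, vertical lines run from the lowest to the highest PLC/PRF/5 peak, and genes beyond 1 in HUH7 are named. All points but HMOX1 lie above 0 on the y axis, whatever their HUH7 sign.

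Further genes of the same pathways, not among the 60, were read from lists of their own. Of 30 other integrated stress response genes, 26 were listed in HUH7, 16 positive and 10 negative, with a median of 0.14. SESN2 (1.94), ATF3 (1.26) and EIF2B5 (1.08) were the highest and SLC7A5 (-1.93), NARS1 (-0.88) and PHGDH (-0.53) the lowest without shared values in the authors' deposited table. SESN2 and ATF3 are stress-induced, and SLC7A5 imports large neutral amino acids. Of 49 other ER genes 34 were listed, 20 positive and 14 negative, with a median of 0.094. SERP1 (2.02), HERPUD2 (1.63) and CRELD2 (1.14) were the highest and CREB3L4 (-4.63), the oxidase ERO1A (-2.07) and the ATF6-cleaving protease MBTPS2 (-1.93) the lowest in the authors' deposited table.

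Of 55 other heat shock and chaperone genes 40 were listed in HUH7, 24 positive and 16 negative, with a median of 0.11. The strictly inducible HSP70 gene HSPA6 (4.55), HSPA1L (2.52) and HSPA13 (1.84) were the highest and BAG1 (-1.59), CLPP (-1.07) and DNAJB6 (-1.04) the lowest without shared values in the authors' deposited table. Of 60 other NRF2 and oxidative stress genes 37 were listed, 25 positive and 12 negative, with a median of 0.25, and 15 lay beyond 1. The export pump ABCC3 (4.64), TRIM16 (3.02) and ABCC1 (2.30) were the highest and mitochondrial thioredoxin TXN2 (-3.49), ABCC4 (-1.54) and AKR1C1 (-0.97) the lowest without shared values in the authors' deposited table. AKR1C1 has near-identical paralogues, so its value is uncertain. Across the 4 lists the share beyond 1 was 6 of 26, 8 of 34, 12 of 40 and 15 of 37, beside 36.9% of all HUH7 genes. The share positive was 16 of 26, 20 of 34, 24 of 40 and 25 of 37, beside 60.8%.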

How the data were processed

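MeRIP-seq was made on 8 libraries, 4 from each of 2 cell lines. The values used were log2 fold changes deposited by the authors; per the file headers each is a difference in HUH7 or in PLC/PRF/5. Genome build hg38 and FastQC 0.12.0 are named in the submitters' processing notes; the sources used here name no aligner, peak caller, differential test or filter.

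Genes were matched by name after bringing names to current symbols through the RefSeq table of GRCh38.p14; 0 members needed a synonym. Every member is named where listed; of further pathway genes, the 3 highest and 3 lowest HUH7 values not shared by 10 or more genes. The members and lists were chosen with earlier results of these data known. With 1 library per group, counts, medians and ranges were set beside those of all features. Motifs were searched in RefSeq promoters. The scripts were tested on simulated data (Python 3.11.15, pandas 2.3.3). Alternatives changed the treatment of shared values, size, peaks, names, the second block of the HUH7 column, HSPA1B and the sign of PLC/PRF/5, the last 3 chosen after seeing the data.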

Additional observations from a re-analysis of the deposited data

Results flagged for a closer look

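Of the 44 stress genes listed in both lines, 6 had opposite signs in HUH7 and at every PLC/PRF/5 peak, all beyond 1. The share over all genes listed in both was 9.16%. At any size 13 of the 44 stress genes had opposite signs throughout, beside 37.0% of all genes listed in both. In PLC/PRF/5 90.3% of all gene medians were positive. ATF6B had -2.34 in HUH7 against 12.59 in PLC/PRF/5, EDEM3 -1.37 against 4.57 and 8.53, and ERN1 -1.30 against 6.48 and 10.08 in the authors' deposited table. HSP90B1 had -2.23 in HUH7 against 4 peaks from 3.48 to 11.85, and HSPD1 -1.59 against 2.59 in the authors' deposited table. HMOX1 was the reverse, with 1.10 in HUH7 and its PLC/PRF/5 peak at -1.41 in the authors' deposited table. The difference between the lines was not tested, and it is not stated that both use the same direction of the ratio. ATF6B and HSPD1 are in the second block of the HUH7 column, where 9.60% of genes were positive.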

How the results depend on the processing

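The share of positive genes was 72.7% in HUH7 (60.8% over all HUH7 genes) and 97.5% in PLC/PRF/5 (of genes whose peaks share a sign). The alternatives moved neither beyond its exact 95% binomial interval, which is a weak check: they mostly keep the same genes, the interval treats genes as independent, and several could not differ (0 members needed a synonym, and 4 of the 5 groups were at 100% in PLC/PRF/5). Among HUH7 values beyond 1 the positive share of the stress genes was 61.5% (8 of 13), near that of all HUH7 genes. Over all PLC/PRF/5 genes, 78.1% had only positive and 8.75% only negative peaks. The share of the 44 genes with the same deposited sign in both lines was 70.5%, beside 56.8% of all genes listed in both. It moved outside its interval, to 45.5% (5 of 11), among genes with an absolute HUH7 value of 1 or more, which are fewer genes. These shares assume that both lines use the same direction of the ratio. With PLC/PRF/5 turned, an alternative chosen after seeing the data, they are 29.5% (13 of 44) and 54.5% (6 of 11), both also outside that interval. Within the groups 1 share moved, that of positive NRF2 genes in HUH7. It went from 66.7% (6 of 9) to 100% (2 of 2) among values beyond 1. No paired analysis was possible because each group held 1 library and the table holds no value per library. No value carries an error between libraries, and depth is unknown.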

Other observations

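The second block of the HUH7 column also held genes of the wider stress pathways. In the authors' deposited table it held CREB3L4 at -4.63, ERO1A at -2.07, ABCC4 at -1.54 and NARS1 at -0.88. These genes were named for the 3 highest or 3 lowest unshared values of their lists. Their signs therefore do not describe the other pathway genes of the block. CLPX, with the shared value -9.27 in the authors' deposited table, is also in it. In PLC/PRF/5, ERO1A had 4 peaks from 3.15 to 11.44, NARS1 3 from 6.79 to 12.55 and ABCC4 1 at 4.32 in the authors' deposited table. All of these were positive, as were 86.0% of all peaks, and CREB3L4 was not listed there. Over the 479 genes of the block 354 (73.9%) had an absolute value of 1 or more, 331 of them negative.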
